A study of Rattus norvegicus with 18 samples.

Results

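The response of wild-type mesenchymal stem cells (WT-MSCs) to cyclic stretch was read from 6 RNA-seq libraries, 3 labelled cyclic mechanical stretch (CMS) and 3 labelled serum starvation (SSt), out of 18 in the series. The cells came from the bone marrow of 2-month-old wild-type SD (Sprague-Dawley) rats and were starved of serum for 8 h at passage 3. CMS libraries were then stretched by 10% for 24 h, and the stretch came from a vacuum-driven Flexcell plate coated with collagen I. SSt libraries are labelled as starved of serum for 24 h, and 3 more wild-type libraries received fetal bovine serum (FBS) for 24 h. The study's methods give a shorter treatment than the labels do, and the labels are followed here. Knockout libraries (KO, miR-337-/- rats) enter only at the end. The study's legends speak of independent experiments, but the labels do not say whether the 3 libraries of a group come from separate rats or cultures, and the p-values therefore cover only the spread among these libraries, which may be technical. The members are the 12916 genes, of 32623 in the deposited table, with an FPKM (reads of a gene scaled by transcript length and library total) of at least 1 in 3 of the 9 wild-type libraries. Depth was 58282516 to 62056569 counts per library in CMS and 63381441 to 71847969 counts in SSt.

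Stretch reaches a cell through integrins, focal adhesions, the actin cytoskeleton and stretch-gated ion channels such as Piezo1. From there the co-activators YAP and TAZ, which act with TEAD factors, and the pair MRTF and SRF are classic readouts of tension. Serum acts through growth factor receptors, the ERK and PI3K-Akt pathways and immediate early genes, and its removal is a standard way to make cultured cells leave the cell cycle. The study asked whether stretch alone brings starved MSCs back into the cycle.

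The labels were set against these groups before any other result. Genes of DNA replication and mitosis, immediate early factors and feedback genes of ERK signalling were mostly higher in libraries labelled SSt than in CMS. In a list of inhibitors of cyclin-dependent kinases and pocket proteins, 8 of 11 tested members were higher in those labelled CMS. Some of these rises came from low levels, and Cdkn1a, the most abundant member, was slightly lower. In the summed FPKM of 29 mitosis genes the SSt libraries held 507 to 542, the CMS libraries 255 to 266 and the FBS libraries 268 to 278. Genes of the SRF programme and targets of YAP and TEAD, readouts of tension, were also mostly lower in the libraries labelled CMS. Their median log2 fold changes, CMS over SSt, were -1.37 and -0.68. Most of these directions are opposite to those that the background above gives for stretch and serum. Such readouts are indirect, so the groups are called as labelled and every direction below rests on those labels. The cause of this pattern, and whether the labels are as meant, was not tested. Lepr encodes the leptin receptor, whose protein the study uses to mark these cells in marrow and, by flow cytometry, in culture. The gene had a count of 0 in all 6 CMS and SSt libraries and 61 counts over all 18, and RNA counts do not measure the protein. Of 18 genes of MSC identity 16 were tested, and Thy1, Cd44, Pdgfra and Itgb1 were well above the filter in every library. The row of the microRNA gene Mir337 was at 0 in all 18 libraries, and small RNA was not analysed here.

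Macrophage genes were abundant in every library. Lyz2, the macrophage lysozyme, measured 2217, 2361 and 2319.5 FPKM in the SSt libraries and 4666, 4857 and 4999 FPKM in the CMS libraries. The groups did not overlap, and Lyz2 was higher in CMS (log2 fold change 1.05 with SE 0.0357, adjusted p = 4e-09, edgeR's quasi-likelihood test with Benjamini-Hochberg adjustment, as for every adjusted p here). Over 21 macrophage markers in the table the summed FPKM ran from 4666 to 4777 in SSt and from 7774 to 8145 in CMS. Lyz2 accounts for most of this rise, from 2299 to 4841 FPKM on average, and the median log2 fold change of the list was 0.38. Of 19 tested, 11 rose, among them Cd74 of antigen presentation (1.89) and the lipid receptor gene Trem2 (2.61), while 5 fell, among them Cd14, the co-receptor for endotoxin (-1.80), and Adgre1, which encodes F4/80 (-1.33). Cd163 and Marco were at or near 0 in all 6 libraries. In bulk RNA, more cells of a type and more RNA per cell cannot be told apart, and the part of macrophages in the results below was not tested. Of 11 lymphoid and erythroid markers none was tested, with a summed FPKM of at most 0.779 in any CMS or SSt library. Of 10 endothelial markers found, 3 were tested, and the sum of the 10 ran from 19.95 to 20.97 FPKM in SSt and from 32.3 to 34.2 FPKM in CMS. Tie1, a receptor of endothelial cells, went from 7.12 to 23.2 FPKM (1.68), Egfl7 fell (-0.44) and Esam did not pass (-0.52, adjusted p = 0.059) except with DESeq2, the replicate block, the 2 groups alone or without WT SSt replicate 1 (adjusted p from 0.0298 to 0.0496). Cdh5 and Tek reached at most 0.547 and 0.640 FPKM, and Vwf, Cldn5, Kdr and Emcn at most 0.0564 FPKM. The part of such cells in the results was not tested.

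Across the 12916 tested genes, 8634 differed between CMS and SSt at an adjusted p under 0.05, 4468 of them higher in CMS (34.6%) and 4166 lower (32.3%). Below, "rose" and "fell" mean that a gene passed this limit. With a fold of at least 2 as well, 1119 genes were called higher (8.66%) and 1036 lower (8.02%). Of the called genes 51 rose and 91 fell by at least 16-fold. Groups did not overlap in 9213 genes (71.3%), so a lack of overlap in a single gene is common here. The median log2 fold change was 0.02. Of 483 tested genes under 1 FPKM in all SSt libraries 328 were called higher, and of 292 under 1 FPKM in all CMS libraries 222 were called lower, and such genes passed the filter through the other groups. Of 778 genes in the lists below, 26 were under 1 FPKM in all SSt libraries and 26 in all CMS libraries, so the counts by list hold some genes that had to differ. Medians of 23 of 47 lists were over 1.5 times smaller with limma at a pseudocount of 5, and none changed sign. Log2 values correlated with a mean r of 0.973 between CMS libraries, 0.976 between SSt libraries and 0.897 between the groups.

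**Figure D1:**
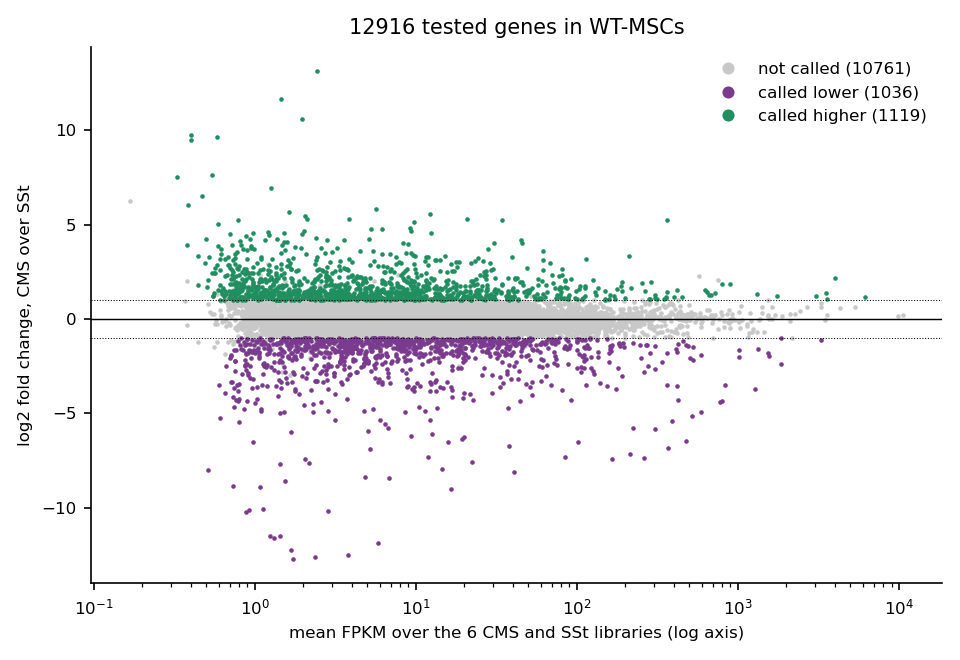
Log2 fold change, CMS over SSt, against the mean FPKM over the 6 libraries (log axis) for 12916 tested genes. Green points are the 1119 genes called higher, purple points the 1036 called lower, grey points the rest, and dotted lines mark a fold of 2. Calls spread over the whole range of expression.

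The 12 largest rises, taken from called genes without overlap whose FPKM averaged 5 or more, joined lipid handling, matrix and cell adhesion. Olfml2a, which encodes a secreted olfactomedin-like protein, had the largest. It measured 0.220, 0.190 and 0.154 FPKM in SSt and 10.4, 10.9 and 11.96 FPKM in CMS, so that every CMS library was far above every SSt library (log2 fold change 5.86 with SE 0.114, adjusted p = 1.37e-10). Mgll, the lipase that cleaves monoacylglycerols, measured 0.324, 0.288 and 0.826 FPKM in SSt and 24.96, 26.6 and 20.6 FPKM in CMS (log2 fold change 5.59 with SE 0.308, adjusted p = 1.21e-07). Fabp4, a fatty acid carrier of adipocytes and macrophages, measured 15.6, 17.7 and 20.9 FPKM in SSt and 614, 735 and 769.6 FPKM in CMS (log2 fold change 5.26 with SE 0.133, adjusted p = 5.62e-10). The choice of genes fixed that these 3 do not overlap between groups, so their separation is no result. Olfml2a and Mgll were under 1 FPKM in every SSt library and passed the filter through the other groups. Fabp4 was the most abundant of the 12. Slc27a6, a fatty acid transporter (4.77), and Aox1, aldehyde oxidase (5.24), rose as well. The Wnt antagonist Frzb (4.79), the integrin subunit Itga4 (5.12), the matrix proteins Sned1 (4.82) and Clec3b (4.58), the xylosyltransferase Gxylt2 (4.27) and the leukocyte receptor Lilrb3 (5.31) complete the set with AABR07012295, which is annotated as a pseudogene (4.69).

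The 12 largest falls were led by secreted signals. Il11, a cytokine of stromal cells, measured 77.0, 84.0 and 82.9 FPKM in SSt and 0.560, 0.186 and 0.152 FPKM in CMS (log2 fold change -8.09 with SE 0.293, adjusted p = 5.94e-09). Il1a, the alarmin interleukin 1 alpha, measured 327, 356 and 298 FPKM in SSt and 2.73, 1.55 and 1.43 FPKM in CMS (log2 fold change -7.44 with SE 0.230, adjusted p = 2.06e-09). Csf3, the growth factor of granulocytes, measured 522, 536 and 491 FPKM in SSt and 4.24, 3.09 and 2.04 FPKM in CMS (log2 fold change -7.39 with SE 0.215, adjusted p = 1.33e-09). Each of these genes was far lower in every CMS library than in any SSt library, and the choice of genes fixed that the groups do not overlap. Il11 was under 1 FPKM in every CMS library and passed the filter through other libraries. Nos2, which makes nitric oxide, measured 401, 432 and 448 FPKM in SSt and 4.36, 2.57 and 2.06 FPKM in CMS (log2 fold change -7.18 with SE 0.270, adjusted p = 7.81e-09). Krt7, a keratin (-7.30), and Cd69, an early activation receptor of leukocytes (-6.88), fell too, the latter with no count in 1 of 3 CMS libraries.

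For 4 of the 12 the CMS counts were too few for a fitted fold to be a size. Il10, the anti-inflammatory cytokine, had 4, 0 and 4 counts in the CMS libraries against 1318, 1841 and 1659 in SSt. Wfdc21, a small secreted protein gene, had 4, 4 and 0 counts in CMS against 592, 813 and 963 in SSt. Npy, neuropeptide Y, had 4, 0 and 0 counts in CMS against 568, 511 and 584 in SSt. In each the SSt libraries were all high and the CMS libraries at or near 0. LOC100912228 had no count in any CMS library against 521, 454 and 513 in SSt, which is at least 148-fold lower when 3 counts are written for each CMS library. The deposited annotation places LOC100912228 beside Npy with the same pathway terms, so reads may have been split between them. ENSRNOG00000056808 and LOC100359515 are annotated as pseudogenes, and ENSRNOG00000056808 was at 54.6, 53.9 and 0.247 FPKM in the FBS libraries.

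**Figure D2:**
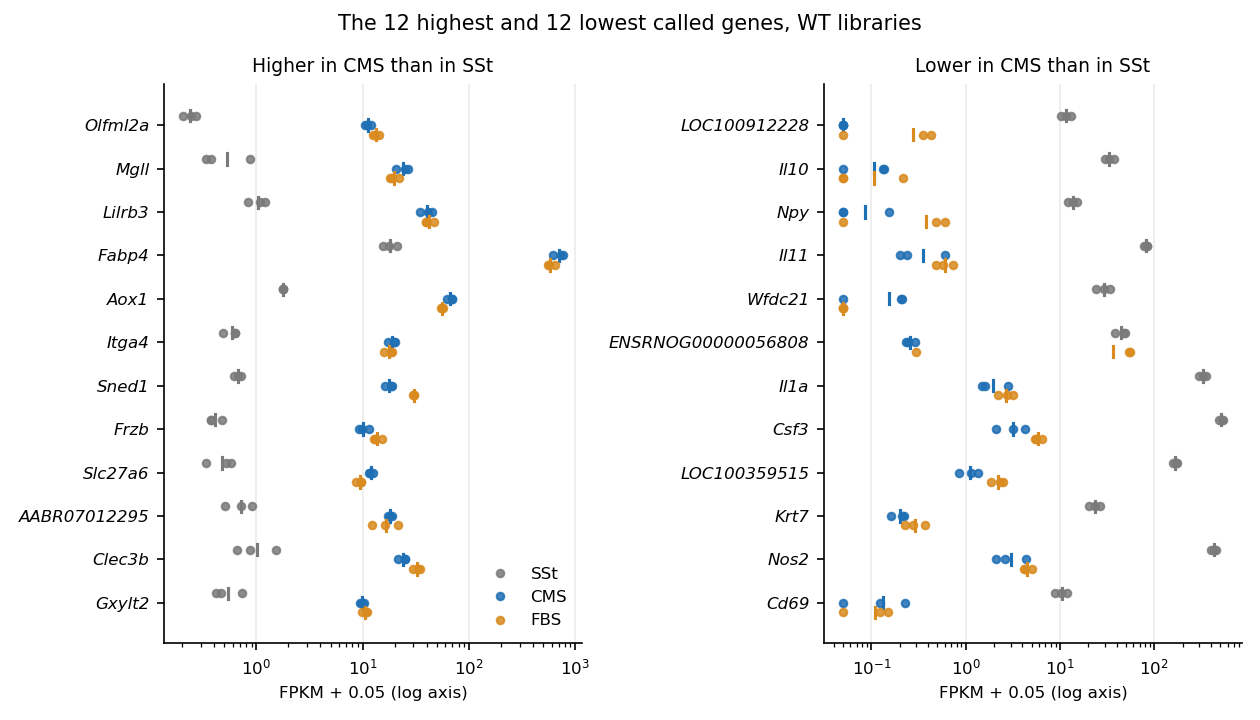
FPKM plus 0.05 (log axis) of the 12 highest and 12 lowest called genes, with 1 point per library, 3 per group, and a bar at each group's mean, in SSt (grey), CMS (blue) and FBS (orange). The choice of genes fixed that SSt and CMS points do not overlap, and in ENSRNOG00000056808 the FBS points of 2 libraries lie near those of SSt.

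Every tested gene of sterol synthesis was higher in CMS. The mevalonate pathway turns acetyl-CoA into cholesterol, and its genes are classic targets of SREBP2, which is released when membranes are low in sterol. Of 20 tested genes 20 rose and 18 were called, with a median log2 fold change of 1.62 against 0.02 over all tested genes. Tm7sf2, a sterol reductase, measured 3.98, 4.56 and 5.27 FPKM in SSt and 40.7, 48.3 and 43.3 FPKM in CMS, the largest rise of the pathway (log2 fold change 3.23 with SE 0.104, adjusted p = 2.69e-09). Dhcr7, which makes cholesterol in the last step, measured 4.47, 4.47 and 4.83 FPKM in SSt and 30.3, 33.7 and 30.5 FPKM in CMS (log2 fold change 2.75 with SE 0.0574, adjusted p = 1.91e-10). Groups did not overlap for either gene. Cyp51 (2.12), Hmgcs1 (1.69), Msmo1 (1.66) and Fdps (1.49) rose as well.

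Among genes of sterol uptake, sensing and efflux, 13 of 17 tested members rose and 3 fell, with a median log2 fold change of 0.84. Insig1, the brake on SREBP processing (1.57), and the ubiquitin ligase gene Mylip (1.51) rose past a fold of 2. The cholesterol hydroxylase Ch25h fell (-1.53), as did Abca1, the pump that exports cholesterol (-0.60). Of fatty acid synthesis and desaturation, 12 of 13 tested members rose and 0 fell, with a median log2 fold change of 0.88. Scd, a stearoyl-CoA desaturase, measured 7.71, 7.28 and 6.98 FPKM in SSt and 64.8, 80.7 and 70.7 FPKM in CMS (log2 fold change 3.27 with SE 0.0772, adjusted p = 3.73e-10). Acss2, which makes acetyl-CoA from acetate (2.95), and the desaturases Fads1 (1.83), Fads2 (1.83) and Scd2 (1.96) rose past a fold of 2. Fasn, the fatty acid synthase itself, rose by less (0.72), and the elongase Elovl1 did not pass (0.10, adjusted p = 0.266) unless WT SSt replicate 1 was left out (0.21, adjusted p = 0.00445).

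**Figure D3:**
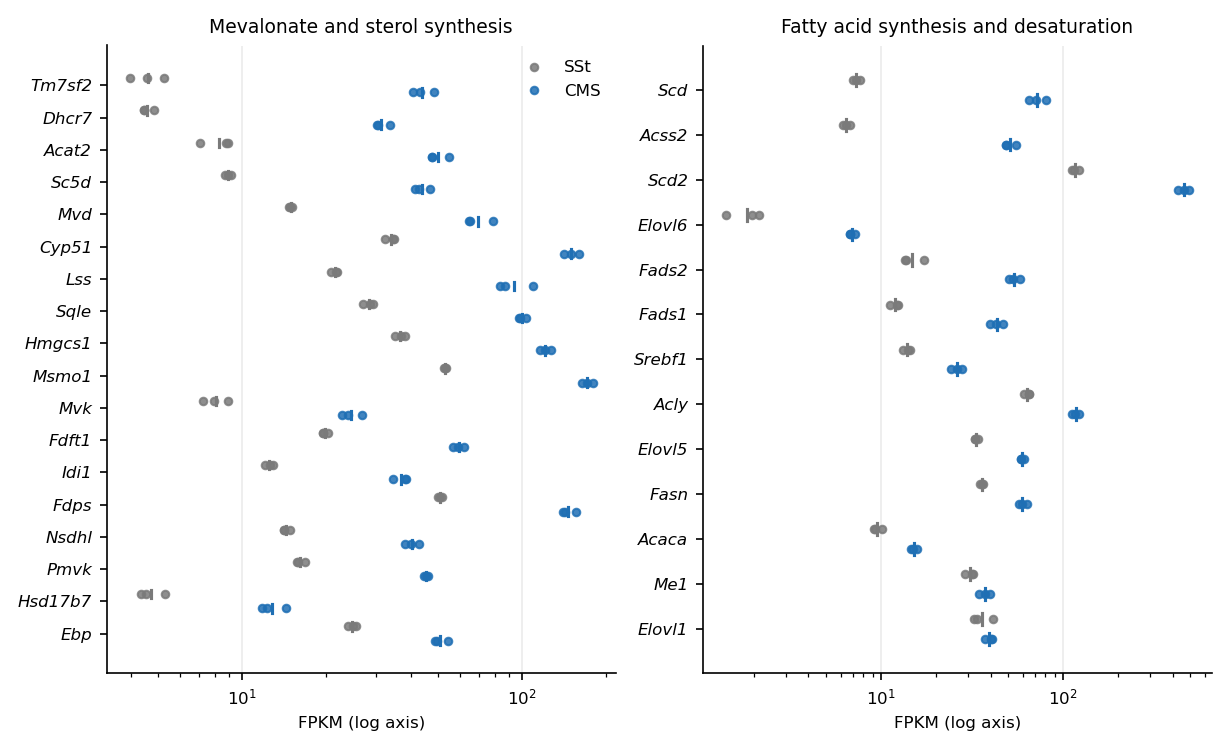
FPKM (log axis) of the 18 called sterol genes and 13 fatty acid genes in the SSt libraries (grey) and CMS libraries (blue), with 1 point per library, 3 per group, and a bar at each mean. All 18 sterol genes lie to the right in CMS, with Tm7sf2 at the top (log2 fold change 3.23).

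Several genes of the fat, cartilage and bone lineages were higher in CMS, some of them from low levels. Of the adipocyte lineage, 10 of 12 tested members rose and 1 fell, with a median log2 fold change of 1.36 (0.38 with limma at a pseudocount of 5). Lpl, lipoprotein lipase, measured 3.95, 4.35 and 5.61 FPKM in SSt and 77.4, 95.0 and 85.7 FPKM in CMS (log2 fold change 4.19 with SE 0.129, adjusted p = 1.98e-09). Pparg, the master factor of adipocytes, went from 0.516 to 2.12 FPKM on average (2.00), and Cebpa also rose (1.51), while Plin1, Adipoq and Lep of mature fat cells stayed under 0.0533 FPKM in all 6 libraries. Of the osteoblast lineage 8 of 17 genes in the table were tested, 7 of which rose and 1 fell. Runx2, the master factor of bone, measured 4.57, 4.44 and 4.78 FPKM in SSt and 5.78, 6.77 and 5.62 FPKM in CMS (log2 fold change 0.37 with SE 0.0872, adjusted p = 0.00361). Col1a1, the main collagen of bone, measured 782, 774 and 789 FPKM in SSt and 1306, 1327 and 1274 FPKM in CMS (log2 fold change 0.71 with SE 0.0334, adjusted p = 3.67e-08). Neither gene overlapped between groups, and neither reached a fold of 2. Bmp2, a bone morphogenetic protein, fell (-2.84), and the osteoblast genes Sp7, Bglap, Ibsp and Dmp1 were under the filter. Of 14 cartilage genes 6 were under the filter, and 4 of the others, Col2a1 among them, averaged under 1 FPKM in SSt and passed it through the groups where they are higher, so no count is given. Col2a1, the collagen of cartilage, went from 0.979 to 4.67 FPKM (2.23), Prg4, which makes lubricin, from 275 to 619.6 FPKM (1.15), and the proteoglycan Acan from 2.23 to 0.730 FPKM (-1.63).

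Genes for inflammatory signals were the group with the largest falls. Chemokines draw leukocytes into tissue, and in stromal cells and macrophages most of them depend on NF-kappaB. Of CXC and CC chemokines, 2 of 16 tested members rose and 13 fell, with a median log2 fold change of -1.90. Cxcl2, which recruits neutrophils, measured 760.5, 782 and 659.8 FPKM in SSt and 8.91, 5.73 and 5.12 FPKM in CMS (log2 fold change -6.82 with SE 0.233, adjusted p = 4.04e-09). Its relatives Cxcl1 (-3.48) and Cxcl3 (-4.34), the monocyte attractant Ccl2 (-1.79) and the macrophage chemokine Ccl3 (-3.54) fell past a fold of 2. Cx3cl1, fractalkine, rose from 1.49 to 17.3 FPKM (3.51), and Cxcl12, which holds blood stem cells in the marrow, did not pass (0.06, adjusted p = 0.533). Reads of close paralogs such as Cxcl1, Cxcl2 and Cxcl3 may be shared in the counting.

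Of interleukins and colony-stimulating factors, 1 of 21 tested members rose and 18 fell, with a median log2 fold change of -2.51. Il1b, interleukin 1 beta, measured 1002, 968 and 837 FPKM in SSt and 15.9, 8.57 and 7.97 FPKM in CMS (log2 fold change -6.46 with SE 0.257, adjusted p = 1.13e-08). Il6, a cytokine of the acute phase, measured 431, 459 and 433 FPKM in SSt and 8.27, 9.67 and 6.92 FPKM in CMS (log2 fold change -5.76 with SE 0.113, adjusted p = 1.4e-10). Every SSt library was far above every CMS library for both genes. Tnf measured 18.5, 16.9 and 11.4 FPKM in SSt and 5.67, 4.38 and 4.38 FPKM in CMS, and did not pass although its groups did not overlap (log2 fold change -1.72 with SE 0.744, adjusted p = 0.0648). In a fit of the CMS and SSt libraries alone Tnf passed (-1.73, adjusted p = 0.000116), as it did with limma at a pseudocount of 1 (-1.50, adjusted p = 0.0485). Il34, a ligand of the macrophage receptor Csf1r, was the only member that rose (3.47), while Csf1, the other ligand, fell (-1.28). The fold of Il34 rests on low levels. With limma, which shrinks the change of low genes, it was 0.97 at a pseudocount of 1 and 0.27 at 5.

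Among nitric oxide and prostaglandin genes, 3 of 14 tested members rose and 9 fell, with a median log2 fold change of -1.31. Ptgs2, the inducible cyclooxygenase, measured 787, 835 and 811 FPKM in SSt and 48.2, 40.0 and 39.6 FPKM in CMS (log2 fold change -4.28 with SE 0.0758, adjusted p = 9.36e-11). Ptges, which makes prostaglandin E2 (-5.41), and Arg1, the arginase that competes with Nos2 for arginine (-6.54), fell further, while Ptger2, a receptor of prostaglandin E2, rose (1.29). Subunits and feedback genes of NF-kappaB changed by less, and 3 of 16 tested members rose and 11 fell, with a median log2 fold change of -0.42. Nfkbia, the inhibitor that NF-kappaB itself induces (-1.22), and Birc3 (-1.52) fell past a fold of 2, whereas the subunit gene Nfkb1 fell by less (-0.22). Interferon-stimulated genes went the other way, and 10 of 14 tested members rose and 3 fell, with a median log2 fold change of 1.01. The 3 falls became 1 without WT CMS replicate 3 or WT SSt replicate 3 and with library totals, upper-quartile scaling or limma, and the median became 0.255 with limma at a pseudocount of 5. Ifit2, an antiviral RNA-binding protein, went from 1.40 to 13.8 FPKM (3.27), Stat2 rose (1.07), and Usp18, a brake on interferon signalling, fell (-1.47).

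Genes of DNA replication were lower in CMS. The MCM helicase, its loading factors Cdc6 and Cdt1 and the replicative polymerases are made in late G1 under E2F factors. Of 35 tested genes 33 fell, 21 of them past a fold of 2, and none rose, with a median log2 fold change of -1.06. With limma at a pseudocount of 5, which shrinks the change of low genes, 6 rather than 21 were past a fold of 2. Cdc6 measured 7.60, 8.33 and 9.04 FPKM in SSt and 2.06, 1.52 and 1.94 FPKM in CMS (log2 fold change -2.20 with SE 0.127, adjusted p = 1.68e-07). Mcm6, a helicase subunit, measured 33.2, 34.0 and 33.4 FPKM in SSt and 12.8, 11.2 and 10.9 FPKM in CMS (log2 fold change -1.55 with SE 0.0596, adjusted p = 8.81e-09). Tyms, which makes thymidylate, measured 10.9, 9.43 and 9.27 FPKM in SSt and 10.2, 10.3 and 11.1 FPKM in CMS, with overlapping groups, and did not pass (log2 fold change 0.07 with SE 0.0735, adjusted p = 0.405). Cdt1 (-1.93), Orc1 of the origin recognition complex (-1.91) and Rrm2 of ribonucleotide reductase (-0.64) fell, and Pcna, the sliding clamp, fell by the least of the genes that passed (-0.28).

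The E2F motif was searched in the promoters of these genes, to show the sequence behind the list. The letters TTTNGCGC were sought on both strands in 300 bases around each RefSeq start, 250 before it and 50 after, in build GRCr8. They were in 13 of 28 replication genes with a promoter (46.4%), in 2.43% of 8428 tested genes with one and in 1.39% of all 24206 promoters, and in 20 of 646 promoters of genes called lower (3.10%). The list is made of textbook targets of E2F, so the share describes the list and not these data, and a match is not a binding site. Below are windows upstream of the start of 3 MCM genes, which all fell (Mcm5 -1.38, Mcm6 -1.55, Mcm7 -1.39), at chr19:13488580-13488627 (plus strand), chr13:42404464-42404511 (minus strand) and chr12:22163203-22163250 (minus strand), 5′ to 3′ in the direction of the gene with the match in capitals. In Mcm5 and Mcm6 the opposite strand matches too, and the 2 matches share the letters GCGC.
Mcm5: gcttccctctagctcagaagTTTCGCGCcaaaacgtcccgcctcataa
Mcm6: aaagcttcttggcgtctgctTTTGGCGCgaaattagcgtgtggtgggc
Mcm7: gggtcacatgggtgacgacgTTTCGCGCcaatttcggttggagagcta

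Mitosis genes fell without exception among those tested. Of 29 tested 29 fell and 11 were called, with a median log2 fold change of -0.94. Mki67, the Ki-67 antigen of cycling cells, measured 24.2, 25.3 and 26.1 FPKM in SSt and 23.3, 21.4 and 22.4 FPKM in CMS (log2 fold change -0.20 with SE 0.0430, adjusted p = 0.00232). It was among the smallest falls of the list, and its groups did not overlap. Mybl2, a factor that turns on late cell cycle genes, had the largest (-2.84), followed by the cytokinesis gene Anln (-2.04), Ccnb1, cyclin B1 (-1.43), and Cdk1 (-1.26). Of G1 cyclins and E2F factors, 3 of 14 tested members rose and 11 fell, with a median log2 fold change of -0.83, with Ccne2 (-2.35), Ccne1 (-1.81) and Ccnd1 (-1.20) of the cyclins past a fold of 2. Cdk4 rose (0.21), and so did the factor E2f2 (1.44, and 0.36 with limma at a pseudocount of 5). Among inhibitors of the cycle and pocket proteins, 8 of 11 tested members rose and 3 fell, with a median log2 fold change of 0.46. Cdkn2b, which encodes p15, measured 0.717, 0.700 and 0.629 FPKM in SSt and 3.83, 4.85 and 3.98 FPKM in CMS (log2 fold change 2.60 with SE 0.355, adjusted p = 0.000102). Every SSt value of Cdkn2b was under 1 FPKM, so it passed the filter through the other groups. Cdkn2a (2.43), Cdkn1c (3.27) and the growth arrest gene Gas1 (2.64) rose past a fold of 2. With limma at a pseudocount of 5 Cdkn2b was at 0.70 and Cdkn1c at 0.22, and the list median was 0.28. Cdkn1a, p21, fell (-0.15) except under upper-quartile scaling, where it did not pass (-0.09, adjusted p = 0.05004).

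Immediate early genes, switched on soon after serum is added to resting cells, were mostly lower in CMS. Of factors of this kind, 6 of 21 tested members rose and 15 fell, with a median log2 fold change of -0.90. Nr4a1, an orphan nuclear receptor, measured 26.5, 27.0 and 24.6 FPKM in SSt and 0.858, 1.21 and 0.891 FPKM in CMS (log2 fold change -4.74 with SE 0.200, adjusted p = 1.71e-08). Egr1 measured 26.8, 31.3 and 22.7 FPKM in SSt and 6.65, 7.82 and 7.12 FPKM in CMS (log2 fold change -1.93 with SE 0.113, adjusted p = 1.85e-07). Egr2 went the other way, with 1.16, 0.956 and 1.28 FPKM in SSt and 10.5, 9.57 and 9.60 FPKM in CMS (log2 fold change 3.10 with SE 0.0968, adjusted p = 2.22e-09). Fosl1 (-1.91), Fos (-1.81) and Myc (-0.66) fell, and Atf3 (2.88), Klf4 (1.44) and Jun (0.48) rose. No group overlap was seen in these named factors. Genes that ERK signalling induces to restrain itself followed, and 3 of 15 tested members rose and 12 fell, with a median log2 fold change of -1.18. The fall of Dusp6 sat at a fold of 2 (-1.01) and came under it without WT CMS replicate 1 (-0.97) or WT SSt replicate 1 (-0.99). Phlda1 measured 212, 211 and 200.4 FPKM in SSt and 18.9, 19.1 and 18.8 FPKM in CMS (log2 fold change -3.48 with SE 0.0403, adjusted p = 1.1e-11). The phosphatases Dusp1 (-2.44) and Dusp6 and the inhibitor Spry4 (-3.11) fell, and Etv5 (1.29) and Etv1 (1.96) rose. With limma at a pseudocount of 5, Etv5 was at 0.94 and Etv1 at 0.54.

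Genes of contraction and of the SRF programme were lower in CMS. SRF, with MRTF as partner, drives genes of actin filaments when actin polymerises under tension. Of 21 tested genes 20 fell, 13 of them past a fold of 2, and none rose, with a median log2 fold change of -1.37. Tagln, transgelin, measured 238, 262 and 239 FPKM in SSt and 77.8, 59.0 and 78.2 FPKM in CMS (log2 fold change -1.81 with SE 0.101, adjusted p = 1.39e-07). Myh11, smooth muscle myosin, measured 1.99, 2.50 and 2.52 FPKM in SSt and 3.01, 2.55 and 2.47 FPKM in CMS, with overlapping groups, and did not pass (log2 fold change 0.17 with SE 0.123, adjusted p = 0.243). Cnn1, calponin (-4.64), Actn1, alpha-actinin (-1.85), the tropomyosins Tpm1 (-1.64) and Tpm4 (-1.16) and Srf itself (-1.37) fell. With limma at a pseudocount of 5, which shrinks the change of low genes, Cnn1 was at -0.35 and Srf at -0.96. Actb, cytoplasmic actin and a common reference gene, fell too (-0.98, and -1.002 without WT SSt replicate 3), while the ribosomal gene Rplp0 did not pass (-0.04, adjusted p = 0.156). Of focal adhesion adaptors and kinases, 4 of 20 tested members rose and 13 fell, with a median log2 fold change of -0.46, with Zyx, zyxin (-1.51), and Csrp1 (-1.72) past a fold of 2. The focal adhesion kinase gene Ptk2 did not pass (-0.04, adjusted p = 0.238).

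**Figure D4:**
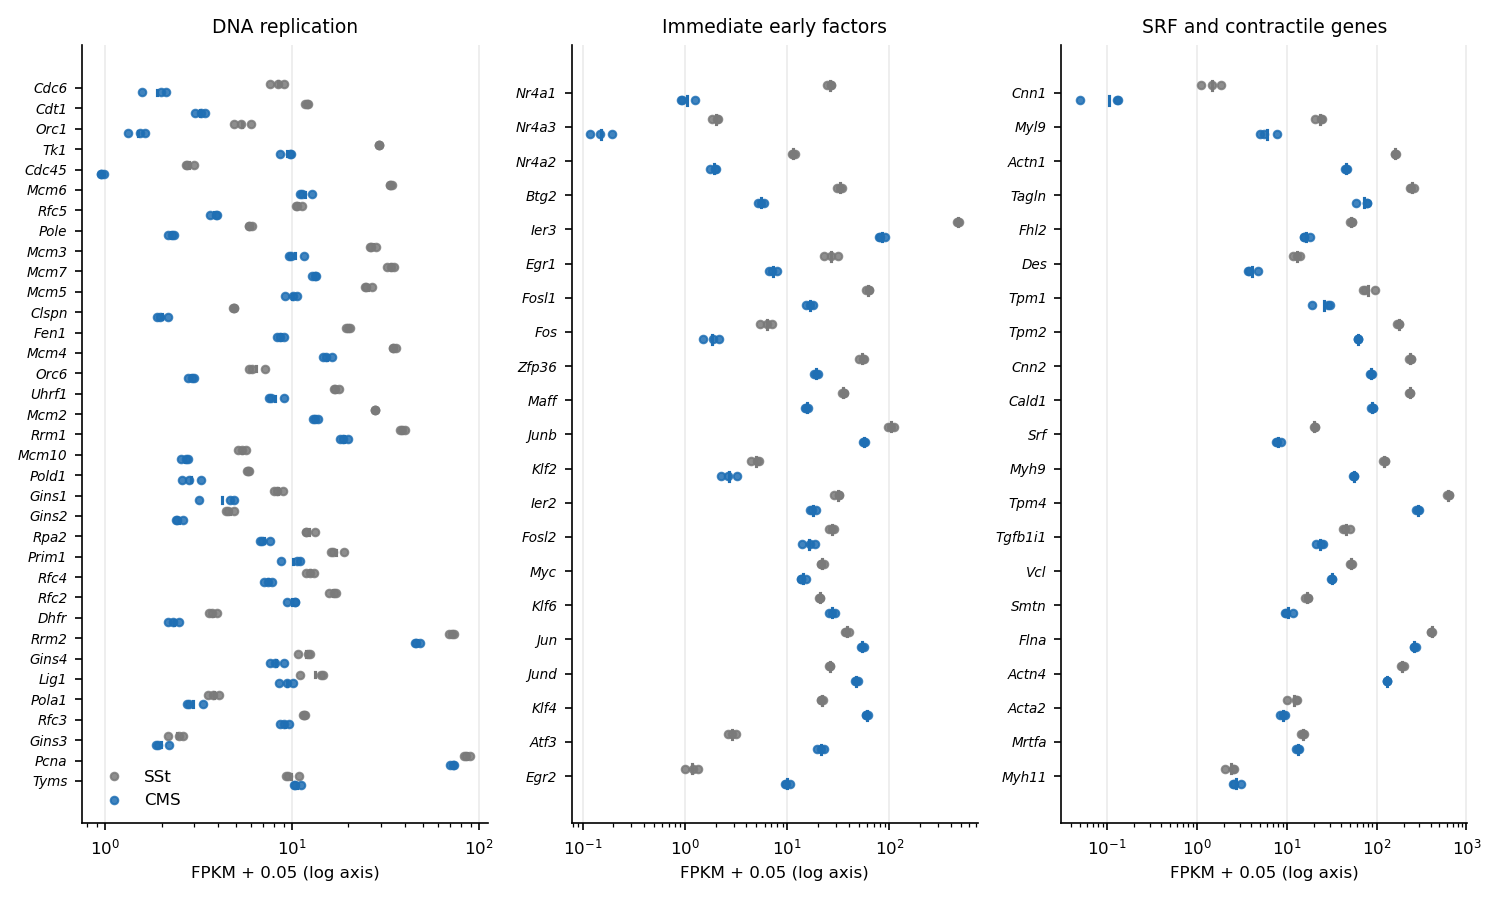
FPKM plus 0.05 (log axis) of DNA replication genes (35), immediate early factors (21) and SRF and contractile genes (21) in the SSt libraries (grey) and CMS libraries (blue), with 1 point per library, 3 per group, and a bar at each mean. CMS lies to the left for 33 replication genes, 15 immediate early factors and 20 contractile genes that passed, and to the right for Egr2, Atf3, Klf4, Jund, Jun and Klf6.

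Piezo1, the calcium channel that the study takes as its stretch sensor, changed by a small amount. It measured 57.2, 58.0 and 57.1 FPKM in SSt and 55.0, 51.1 and 50.5 FPKM in CMS (log2 fold change -0.16 with SE 0.0413, adjusted p = 0.00555). Its groups did not overlap and lay within a few FPKM of each other. Of 10 tested mechanosensitive channels 4 rose and 5 fell, beside 34.6% and 32.3% over all tested genes. Past a fold of 2, 2 channels rose, the larger by 1.13 and Trpv2 by 1.06. In the other direction 1 did, Pkd2, polycystin 2 (-1.93). Of the Hippo kinases, YAP, TAZ and TEAD, 2 of 15 tested members rose and 9 fell, with a median log2 fold change of -0.24. None of them reached a fold of 2, beside 8.66% called higher and 8.02% lower over all tested genes. Yap1 measured 41.0, 44.6 and 41.7 FPKM in SSt and 32.2, 30.4 and 29.7 FPKM in CMS (log2 fold change -0.49 with SE 0.0562, adjusted p = 2.92e-05). Tead1 (-0.54), Tead3 (-0.45) and Wwtr1, which encodes TAZ (-0.62), fell, Tead4 did not pass (-0.11, adjusted p = 0.573), and Tead2 was under the filter.

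Targets of YAP and TEAD split, and most were lower. In this list, 5 of 20 tested members rose and 14 fell, with a median log2 fold change of -0.68. Ccn1, a matricellular protein that binds integrins, measured 181, 178 and 168 FPKM in SSt and 9.32, 8.75 and 9.71 FPKM in CMS (log2 fold change -4.27 with SE 0.0510, adjusted p = 1.24e-11). Ccn2, its relative and the other classic target, measured 104, 108 and 98.7 FPKM in SSt and 189.6, 218 and 218 FPKM in CMS (log2 fold change 0.99 with SE 0.0612, adjusted p = 2.99e-07). The groups were apart for both genes, in opposite directions, and the rise of Ccn2 passed a fold of 2 without WT CMS replicate 1 (1.05) or WT SSt replicate 2 (1.01). Amotl2 (-1.91), Nuak2 (-1.83) and the tissue factor gene F3 (-3.52) fell past a fold of 2. The TEAD letters GGAATG, sought on both strands in the same windows, were in 6 of 13 promoters of the list (46.2%), 11.0% of 8428 tested genes, 13.6% of genes called lower and 13.7% of all 24206 promoters. Members of this list were picked as known targets, so its share describes the list and not these data, and a match is not a binding site. Windows for the pair that went opposite ways and for 2 more that fell are printed here, at chr2:237225777-237225822 (minus strand), chr1:22624755-22624800 (minus strand), chr8:112182530-112182575 (plus strand) and chr13:46305758-46305803 (plus strand) of GRCr8. Capitals mark GGAATG or its reverse complement CATTCC, and Ccn2 has 3 matches in its promoter, of which the most upstream is shown.
Ccn1: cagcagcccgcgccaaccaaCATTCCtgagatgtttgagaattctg
Ccn2: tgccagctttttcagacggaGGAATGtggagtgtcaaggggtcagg
Amotl2: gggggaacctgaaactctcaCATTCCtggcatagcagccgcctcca
Nuak2: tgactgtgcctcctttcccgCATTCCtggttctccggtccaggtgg

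Growth factor genes fell more often than they rose, while their receptors split. Of ligands, 9 of 24 tested members rose and 15 fell, with a median log2 fold change of -1.38 (-0.36 with limma at a pseudocount of 5). Inhba, the subunit of activin A, measured 603, 630.2 and 563 FPKM in SSt and 11.2, 11.5 and 10.01 FPKM in CMS (log2 fold change -5.80 with SE 0.0707, adjusted p = 1.28e-11). Hbegf of the EGF family (-3.93), Ereg (-3.36) and Fgf7 (-1.77) fell, and Pdgfb (3.74), Vegfb (1.77) and Vegfd (1.75) rose. Of receptors, 10 of 22 tested members rose and 9 fell, beside 34.6% and 32.3% over all tested genes. Their median log2 fold change was 0.05. Flt1 (3.75) and Pdgfra (1.62) were among the rises and Fgfr3 (-2.92) and Met (-2.63) among the falls. With limma at a pseudocount of 5, Pdgfb was at 0.36 and Fgfr3 at -0.41.

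Core genes of the PI3K, Akt and mTOR pathway, which the study takes as the route from stretch to the cell cycle, changed by less than a fold of 2 except for 2 genes. Most tested genes of any kind were not called either, with 8.66% called higher and 8.02% lower. Over all tested genes 34.6% rose and 32.3% fell. In this list, 8 of 27 tested members rose and 11 fell, with a median log2 fold change of -0.03, a median that lay between -0.08 and 0.02 over the alternative settings. Both calls were lost with limma at a pseudocount of 5 (Deptor 0.92, Pik3r3 -0.33). Deptor, an inhibitor inside the mTOR complexes, measured 1.56, 1.66 and 1.56 FPKM in SSt and 6.08, 7.70 and 8.86 FPKM in CMS (log2 fold change 2.21 with SE 0.149, adjusted p = 5.4e-07). Pik3r3, a regulatory subunit of PI3K, measured 2.55, 3.03 and 2.97 FPKM in SSt and 1.23, 1.58 and 0.978 FPKM in CMS (log2 fold change -1.20 with SE 0.213, adjusted p = 0.00065). Irs1, the adaptor that the study places under miR-337, measured 2.84, 2.89 and 2.84 FPKM in SSt and 2.11, 2.24 and 2.15 FPKM in CMS (log2 fold change -0.43 with SE 0.0627, adjusted p = 0.00017). All 3 were apart between groups, and Irs1 stayed under a fold of 2. Akt1 (-0.28) and Mtor (-0.27) fell, neither past a fold of 2. RNA levels measure neither the amount nor the phosphorylation of these proteins, and the study describes miR-337 as blocking translation of IRS-1. Of genes tied to FOXO, starvation and inhibition of mTOR, 13 of 19 tested members rose and 4 fell, with a median log2 fold change of 0.40 that was 0.26 without WT CMS replicate 2 and 0.205 with limma at a pseudocount of 5. The sestrins Sesn1 (1.73) and Sesn3 (1.30) and the autophagy receptor Sqstm1 (1.15) rose past a fold of 2, and Ddit4 (-1.72) and Bnip3 (-1.89), which also answer to hypoxia, fell.

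Matrix genes moved in both directions, as did all tested genes, of which 34.6% rose and 32.3% fell. Of fibrillar and network collagens, 9 of 17 tested members rose and 4 fell, with a median log2 fold change of 0.10, with Col3a1 (1.87) and Col14a1 (2.13) up and Col8a1 (-1.99) and Col12a1 (-1.35) down past a fold of 2. Of matrix glycoproteins and proteoglycans, 14 of 22 tested members rose and 7 fell, with a median log2 fold change of 0.27. Fn1, fibronectin, measured 1929.9, 1990.4 and 1971 FPKM in SSt and 5112, 5148 and 5128 FPKM in CMS (log2 fold change 1.36 with SE 0.0319, adjusted p = 3.61e-10). Tnc, tenascin C of tissue under load and repair, measured 1169, 1154 and 1111 FPKM in SSt and 38.3, 38.9 and 37.5 FPKM in CMS (log2 fold change -4.93 with SE 0.0313, adjusted p = 1.86e-13). Postn, periostin, measured 46.4, 45.4 and 49.6 FPKM in SSt and 212, 199.7 and 200.3 FPKM in CMS (log2 fold change 2.09 with SE 0.0392, adjusted p = 1.15e-10). In all 3 the libraries of a group lay within a narrow band, Tnc falling and the others rising. Small leucine-rich proteoglycans such as Ogn (3.61), Aspn (3.08) and Lum (1.37) rose, and Thbs1, thrombospondin 1, fell (-3.73).

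Enzymes that cut the matrix were mostly lower, and of proteases and their inhibitors 8 of 23 tested members rose and 15 fell, with a median log2 fold change of -0.84. Mmp13, a collagenase, fell (-3.51), and so did Mmp3 (-2.38) and Mmp9 (-2.61). Timp3, an inhibitor of metalloproteases, measured 1.43, 1.51 and 2.34 FPKM in SSt and 13.99, 11.9 and 14.3 FPKM in CMS (log2 fold change 2.90 with SE 0.172, adjusted p = 2.07e-07), while Timp1 fell (-1.91). Of elastic fibre and lysyl oxidase genes, 9 of 18 tested members rose and 8 fell, beside 34.6% and 32.3% over all tested genes. Their median log2 fold change was 0.02 and lay between -0.11 and 0.08 over the alternative settings. The cross-linking enzyme Lox (-1.40) fell, and the fibre proteins Fbln5 (1.95) and Mfap5 (2.02) rose. Of integrin subunits, the receptors that grip the matrix, 3 of 18 tested members rose and 13 fell, with a median log2 fold change of -0.68. Itga8, the partner for tenascin and osteopontin, measured 40.1, 36.3 and 37.7 FPKM in SSt and 0.361, 0.543 and 0.487 FPKM in CMS (log2 fold change -6.38 with SE 0.152, adjusted p = 3.94e-10). Itga4, which pairs with beta 1 to bind fibronectin and Vcam1, measured 0.585, 0.438 and 0.583 FPKM in SSt and 17.4, 19.8 and 19.9 FPKM in CMS (log2 fold change 5.12 with SE 0.121, adjusted p = 3.69e-10). These 2 subunits moved furthest, in opposite directions. Itga4 was under 1 FPKM in every SSt library and Itga8 in every CMS library, so each passed the filter through other libraries. The choice of Itga4 among the 12 largest rises also fixed that its groups do not overlap.

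Signals of the TGF-beta, BMP and Wnt families were mostly lower, with 9 rises and 17 falls in 29 tested genes. The BMP targets Id1 (-3.97) and Id3 (-2.57) and the ligand Wnt5a (-3.19) fell. The BMP antagonist Chrd rose (2.19, and 0.44 with limma at a pseudocount of 5). Tgfb1 did not pass (0.04, adjusted p = 0.339) except under upper-quartile scaling (0.10, adjusted p = 0.0332). Of the MSC identity markers, 4 of 16 tested members rose and 10 fell, with a median log2 fold change of -0.40. Grem1, a BMP antagonist of marrow stroma (-2.07), Cd44, the hyaluronan receptor (-1.37), and Thy1 (-0.90) fell, and Pdgfra (1.62) and Vcam1 (2.04) rose.

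Glycolysis and hypoxia genes were lower in CMS. HIF1 drives both when oxygen is short, and glucose uptake is also raised by growth signals. Of glycolysis and glucose uptake, 1 of 21 tested members rose and 17 fell, with a median log2 fold change of -0.97. Ldha, lactate dehydrogenase, measured 1635, 1592 and 1653 FPKM in SSt and 444, 388 and 389 FPKM in CMS (log2 fold change -2.02 with SE 0.0499, adjusted p = 5.07e-10). Aldoc, an aldolase, was the only rise, with 11.1, 10.8 and 10.7 FPKM in SSt and 25.0050, 23.6 and 21.4 FPKM in CMS (log2 fold change 1.08 with SE 0.0575, adjusted p = 9.59e-08). Slc16a3, which exports lactate (-2.91), and the glucose transporter Slc2a1 (-1.36) fell past a fold of 2, and Pkm, pyruvate kinase, by less (-0.70). Of HIF subunits and other hypoxia genes, 2 of 21 tested members rose and 17 fell, with a median log2 fold change of -1.28. Stc1, stanniocalcin 1, measured 29.8, 30.3 and 34.0 FPKM in SSt and 0.589, 0.234 and 0.213 FPKM in CMS (log2 fold change -6.51 with SE 0.320, adjusted p = 5.2e-08). Every CMS value of Stc1 was under 1 FPKM, so it passed the filter through other libraries. Hif1a itself (-1.46), Adm (-2.57) and Vegfa (-1.96) fell as well, and Ndrg1 rose (0.99), past a fold of 2 without WT CMS replicate 1 (1.01) or WT SSt replicate 3 (1.01).

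The letters ACGTG, the core of the HIF response element, were in 9 of 16 glycolysis promoters (56.2%) and 10 of 16 hypoxia promoters (62.5%), against 26.5% of tested genes, 24.3% of genes called lower and 19.8% of all promoters. Both lists were picked by name, so these shares describe the lists and not these data, and a match is not a binding site. The window of Ldha is shown because that gene fell among the most abundant of the group, at chr1:106507985-106508029 (plus strand) of GRCr8. Capitals mark CACGT, the reverse complement of ACGTG, which overlaps a match on the other strand. A further CACGT stands in lower case downstream in the same window.
Ldha: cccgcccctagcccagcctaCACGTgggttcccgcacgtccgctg

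The letters TCACNCCAC of the sterol response element were in none of 15 sterol and none of 9 fatty acid promoters, and in 1.17% of tested genes. The NF-kappaB motif, GGG and CC with any 5 bases between them, was in 8 of 12 chemokine promoters (66.7%), 8 of 11 of interleukins and colony-stimulating factors (72.7%), 14 of 14 of NF-kappaB genes and 67.2% of tested genes. For the sterol element this says only that these letters are absent from these windows. The NF-kappaB shares describe lists picked by name and not these data.

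**Figure D5:**
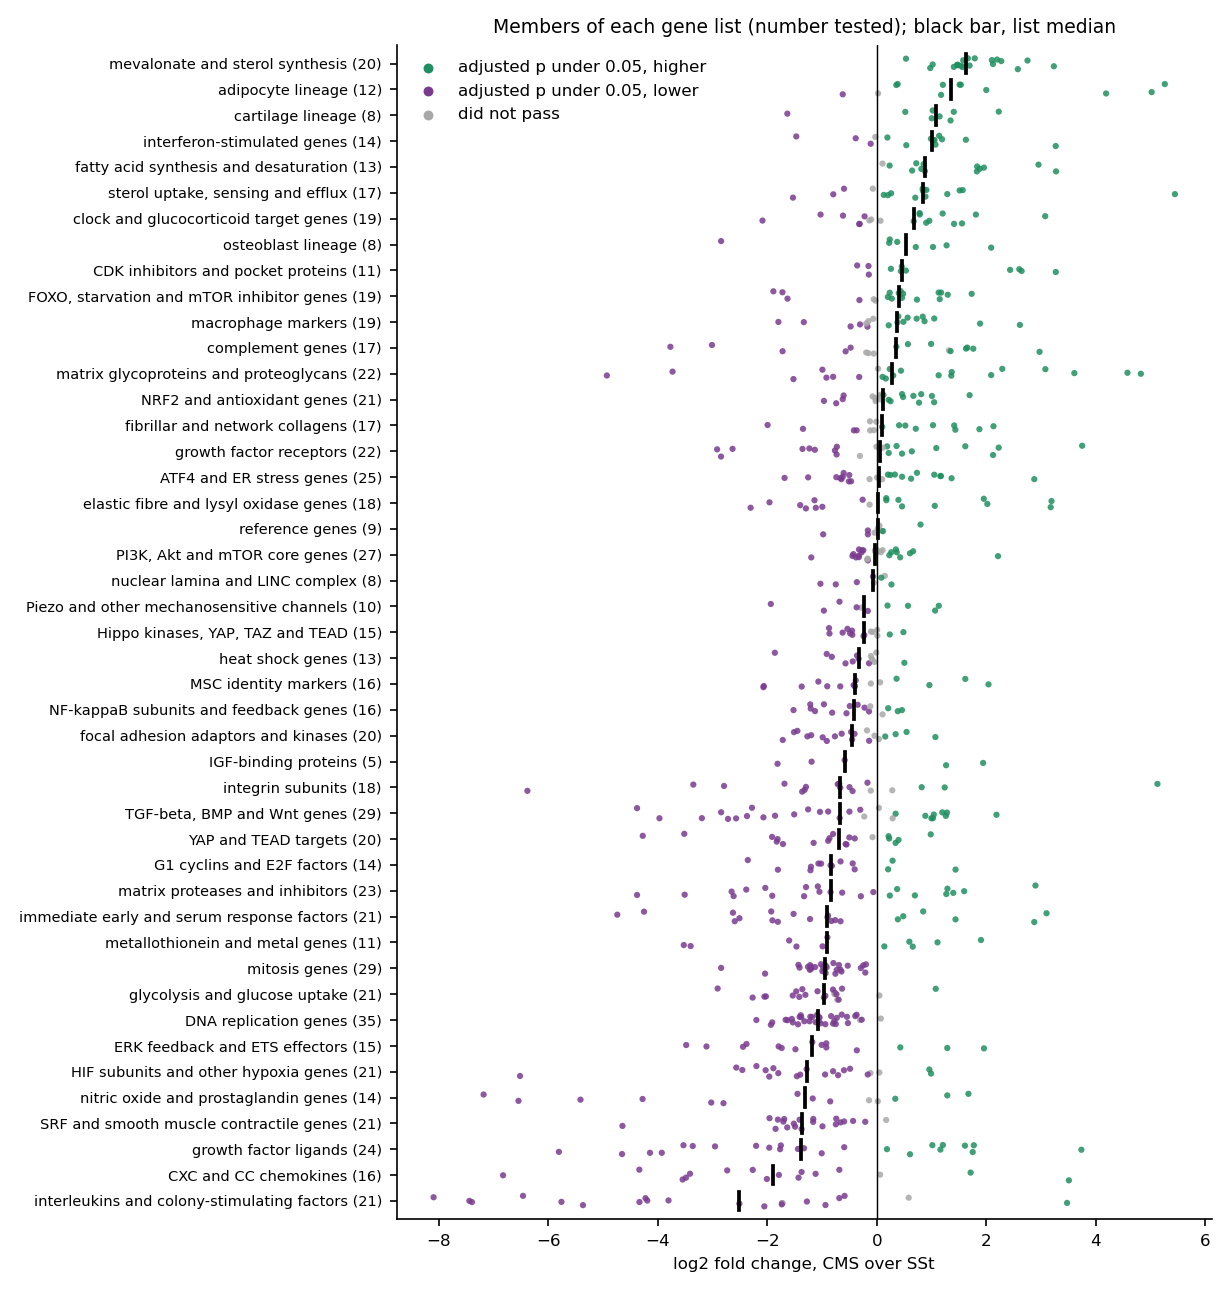
Log2 fold change, CMS over SSt, of the tested members of gene lists with at least 5 tested, with the number tested in brackets and the list median as a black bar. Green and purple points passed an adjusted p under 0.05, higher and lower in CMS, and grey points did not. Medians run from -2.51 for interleukins and colony-stimulating factors to 1.62 for sterol synthesis.

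CMS and FBS were then compared directly, since the study asked how far stretch stands in for serum. Of 12916 tested genes 28 were called (0.217%), 3 higher and 25 lower in CMS, and 1155 passed the adjusted p without the fold limit (8.94%). Log2 values of CMS and FBS libraries correlated with a mean r of 0.972, beside 0.973 among CMS libraries. Aldh1a2, which makes retinoic acid, measured 14.4, 15.9 and 13.7 FPKM in CMS and 31.7, 31.8 and 27.1 FPKM in FBS, with 3.14, 2.96 and 3.27 FPKM in SSt (CMS over FBS log2 fold change -1.03 with SE 0.0776, adjusted p = 0.000166). C3ar1, the receptor of complement C3a, measured 0.565, 0.743 and 0.777 FPKM in CMS and 2.21, 2.39 and 2.04 FPKM in FBS, with 4.58, 5.89 and 6.18 FPKM in SSt (CMS over FBS log2 fold change -1.65 with SE 0.169, adjusted p = 0.000647). Ccl12, a monocyte chemokine, measured 13.4, 7.66 and 7.32 FPKM in CMS and 29.2, 25.9 and 27.9 FPKM in FBS, with 19.3, 21.1 and 19.97 FPKM in SSt (CMS over FBS log2 fold change -1.54 with SE 0.201, adjusted p = 0.0023). Aldh1a2 in CMS lay between SSt and FBS, C3ar1 in CMS lay below both, and so did Ccl12, whose first CMS library was nearest to SSt. Against SSt, the fall of Ccl12 (-1.12) came under a fold of 2 without WT CMS replicate 2 (-0.99) or 3 (-0.96).

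The prostaglandin transporter Slco2a1 (-1.27, adjusted p = 0.000527), the Wnt antagonist Sfrp1 (-1.05, adjusted p = 0.00176), the protease Adamts9 (-1.01, adjusted p = 0.00316), the receptors Tnfrsf14 (-1.66, adjusted p = 0.00336) and Tlr1 (-1.05, adjusted p = 0.00786) and the loci LOC100359515 (-1.01, adjusted p = 0.00499) and LOC360919 (-1.03, adjusted p = 0.00598) were lower in CMS than in FBS too. With the 3 above they are the 10 of smallest adjusted p. The count of 28 became 46 without WT CMS replicate 1.

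Across genotypes, the change from SSt to CMS differed in 1787 of 13317 genes tested over all 18 libraries (13.4%), by the interaction of genotype and treatment with the same limits, 886 of them higher and 901 lower in WT. Without the fold limit 5965 genes passed (44.8%).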

How the data were processed

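RNA-seq was taken from cultured WT and KO rat bone marrow MSCs, with 3 libraries in each of 6 groups. For each gene the authors deposited a count of reads, whole and not normalised, and the FPKM, which the authors made from that count by transcript length and library total, with a count of 0 taken as 0 here. Bowtie 0.12.2 and the mouse build mm10 stand in the submitters' processing notes, although gene identifiers are those of rat Ensembl. Neither a counting tool nor a strand setting is given in the sources used here. A count of 4 occurred 2893 times in the 6 CMS and SSt libraries against 1210 for a count of 3 and 650 for 5, so a count need not be 1 independent molecule, and a bound of 3 counts covers counting error only. Some gene names (1556) occur on more than 1 line, and there the Ensembl identifier is printed.

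Counts were tested with edgeR 4.0.16 (TMM scaling, quasi-likelihood F test, Benjamini-Hochberg adjustment) over the 9 WT libraries with group as the only term, and CMS was contrasted with SSt and with FBS. Called genes had both an adjusted p under 0.05 and a change of 2-fold or more. Standard errors (SE) of fold changes came from the F statistic. The WT minus KO difference in response was an interaction over 18 libraries and 13317 genes. Alternatives were DESeq2 1.42.0, limma 3.58.1 on log2 of FPKM with pseudocounts of 0.1, 1 and 5, other scalings and filters, the replicate block, the 2 groups alone and each library left out. Promoters came from RefSeq, build GRCr8, and 8428 tested genes matched one by symbol. R 4.3.3 ran the fits, Python 3.11.15 with pandas 2.3.3 and numpy 2.4.6 the summaries and matplotlib 3.10.9 the plots, and the test was checked on simulated data. Libraries of a group differed by more than sampling noise (chi-square per degree of freedom of at least 18.6), so none was merged.

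The members and gene lists were chosen with earlier results of these data known. Named genes follow a rule: the 12 highest and 12 lowest called genes without overlap whose FPKM averaged 5 or more, the 4 most abundant and 4 most changed called members of each list, the genes the paper names, and for CMS against FBS the 10 called of smallest adjusted p. Not every gene of the rule is named, and some items are not reported here. Abca1, Aldoc, Aspn, Cebpa, Chrd, Col12a1, Csf1, Cxcl12, Egr1, Elovl1, Etv1, Etv5, Fads1, Fads2, Fbln5, Fos, Fosl1, Gusb, Herpud1, Hprt1, Id3, Il34, Jund, Klf6, Lum, Mcm5, Mcm6, Mcm7, Mmp9, Mtor, Myh11, Nfkb1, Ogn, Pdgfb, Per1, Ptger2, Ptk2, Serping1, Sesn3, Slc2a1, Srf, Tfrc, Timp1, Tnf, Tpm1, Tyms, Vegfb and Vegfd were named after their values were seen.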

Additional observations from a re-analysis of the deposited data

Results flagged for a closer look

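The response to CMS differed between WT and KO in 1787 genes, tested as the interaction of genotype and treatment over all 18 libraries with edgeR (3 libraries per group), and this is why the genes below are listed. KO libraries stand in a table of their own, so genotype and table cannot be told apart in their levels. The 5 highest and 5 lowest genes of the WT response were chosen on the same WT libraries, which favours a larger change in WT, and 44.8% of all genes passed the adjusted p, so the values below are a description. Aox1, aldehyde oxidase, was at 1.37, 1.81 and 1.99 FPKM in KO SSt and 25.2, 25.1 and 21.6 FPKM in KO CMS, each KO CMS library above each KO SSt library, with a larger change in WT (difference 1.33, SE 0.185, adjusted p = 3.94e-05). Lilrb3, the leukocyte receptor, was at 0.497, 0.559 and 0.536 FPKM in KO SSt and 6.48, 6.89 and 4.43 FPKM in KO CMS (difference 1.73, SE 0.660, adjusted p = 0.0443). Il11, the stromal cytokine, was at 3.10, 1.92 and 1.81 FPKM in KO SSt and 0.829, 0.738 and 1.16 FPKM in KO CMS (difference -6.90, SE 0.663, adjusted p = 1.84e-06). In WT SSt it had measured 77.0, 84.0 and 82.9 FPKM, far above every KO library.

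For 4 more genes the WT CMS counts are near 0, so the fitted difference depends on the prior count and is no size. These are LOC100912228 (difference -11.11, SE 1.33, adjusted p = 2.16e-05), Npy (difference -7.70, SE 1.13, adjusted p = 6.28e-05), Wfdc21 (difference -10.92, SE 1.502, adjusted p = 6.76e-05) and Il10 (difference -7.38, SE 2.79, adjusted p = 0.0427). In KO SSt, Il10 was at 0.255, 0 and 0.364 FPKM and Wfdc21 at 0.757, 0.310 and 0 FPKM, and in KO CMS Wfdc21 was at 1.71, 2.16 and 3.83 FPKM, above KO SSt in every library. Olfml2a (difference 0.79, SE 0.340, adjusted p = 0.072), Mgll (difference -0.71, SE 0.424, adjusted p = 0.196) and Fabp4 (difference 0.63, SE 0.565, adjusted p = 0.393) did not pass.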

How the results depend on the processing

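Of 239 genes named in the comparison of CMS with SSt, 195 stayed on the same side of the call under every alternative run, none changed direction, and 39 fell under a fold of 2 with limma at a pseudocount of 5, which shrinks low genes by construction. DESeq2, RLE scaling, no filter and the replicate block changed none of these calls. Between CMS and SSt the genes called higher were 1119, against 676 with an FPKM of at least 5, 708 with limma at a pseudocount of 1, 315 at 5 and 4468 by the adjusted p alone. Those called lower were 1036, against 672 with an FPKM of at least 5, 385 at a pseudocount of 5 and 4166 by the adjusted p alone. Between CMS and FBS 28 were called, against 45 with DESeq2, 44 without a filter, 16 with an FPKM of at least 5, 9 with limma at a pseudocount of 1, 5 at a pseudocount of 5, 1155 by the adjusted p alone and 82 with an unadjusted p under 0.05 and the same fold. Of 94 counts of called genes by list 41 moved by over 1.5 times with limma at a pseudocount of 5, while none did with DESeq2 or the replicate block. The median of growth factor receptors (0.05) was 0.01 without WT CMS replicate 2, and the 2 rises among nuclear lamina genes became 1 without WT CMS replicate 1 or WT SSt replicate 2. The WT minus KO count of 1787 became 5965 by the adjusted p alone. Leaving out each library in turn gave 1092 to 1146 higher and 1009 to 1052 lower genes for CMS with SSt, 19 to 46 for CMS with FBS, the 46 without WT CMS replicate 1, and 1707 to 1893 for WT minus KO. A pair of CMS and SSt libraries with the same replicate number did not clearly deviate together (r = -0.038, 0.085 and 0.025). With 3 libraries a group this cannot exclude a weak pairing, and the labels state none, so none was assumed. The replicate block gave 1109 higher and 1035 lower, 25 for CMS with FBS and 1756 for WT minus KO. With 3 libraries a group and origins not stated, the spread between animals is not known.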

Other observations

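Further gene groups, chosen with the rest, showed these changes between CMS and SSt, beside 34.6% rises and 32.3% falls over all tested genes. Of clock and glucocorticoid target genes, 10 of 19 tested members rose and 6 fell, with a median log2 fold change of 0.67, with the clock repressor Bhlhe41 (3.07), Per3 (1.81) and the output factor Tef (1.56) up and Per1 down (-1.03, and -0.94 without WT CMS replicate 3). Of complement genes, 8 of 17 tested members rose and 5 fell, with a median log2 fold change of 0.36 that was -0.04 with an FPKM of at least 5. C1s, a protease that starts the classical cascade (1.76), and its inhibitor Serping1 (1.63) rose, while Cd55, which protects cells from complement, fell (-3.77). Of IGF-binding proteins, 2 of 5 tested members rose and 3 fell, with a median log2 fold change of -0.59, Igfbp6 (1.94) and Igfbp4 (1.27) up and Igfbp3 (-1.81) and Igfbp5 (-1.19) down.

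Stress and metal genes were mixed, as were all tested genes, of which 34.6% rose and 32.3% fell. Of metallothionein and metal genes, 5 of 11 tested members rose and 6 fell, with a median log2 fold change of -0.90. Mt1, a zinc-binding metallothionein (-3.40), Lcn2, which binds iron carriers of bacteria (-3.52), and Tfrc, the transferrin receptor (-1.47), fell, while Slc40a1, the iron exporter, rose (1.90). Of NRF2 and antioxidant genes, 11 of 21 tested members rose and 4 fell, with a median log2 fold change of 0.12, with Gstm1 up (1.69) and Sod2 down (-0.96, and -1.06 without WT CMS replicate 1). Of ATF4 and ER stress genes, 11 of 25 tested members rose and 10 fell, with a median log2 fold change of 0.03, with Atf3 (2.88) and Herpud1 (1.17) up and the chaperone Hspa5 down (-0.74). Of heat shock genes, 1 of 13 tested members rose and 8 fell, with a median log2 fold change of -0.33, and of genes of the nuclear lamina and its link to the cytoskeleton 2 of 8 tested members rose and 4 fell, with a median log2 fold change of -0.06, with Lmnb1, lamin B1, down (-1.03, and -0.995 without WT CMS replicate 2). Of 9 reference genes 4 did not pass, among them Rplp0 and Hprt1, and Gusb rose (0.80).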
